A study of Mus musculus with 2 samples.

Results

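The genes described are 10 named members of the TGF-beta and BMP signalling pathway, followed in the oviduct epithelium of adult mice and of mice at postnatal day 4 (P4). They were chosen by name and read from the adult and the P4 expression matrix by cluster. They are the ligands Tgfb2, Inhbb, Bmp4 and Bmp7, the antagonist Fst, the receptor Bmpr1b, the inhibitor Smad7 and the target genes Id1, Id2 and Id3. All 10 were present among the 26897 genes that both matrices list. The oviduct is the tube that carries eggs from the ovary to the uterus, and the study looked into how its epithelial cells differ from each other. Cells were released with enzymes and sorted by flow cytometry, which removed dead cells and used antibodies to Epcam, an epithelial surface protein, and to CD45, a protein of immune cells. One library of 3' single-cell RNA (10x Genomics V2 chemistry) was made from adult C57BL/6 mice at estrus and 1 from C57BL/6 mice at P4, for which no estrous stage applies. The number of animals behind each library and the age of the adults are not given in the sources used here.

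Proteins of the TGF-beta family are secreted ligands that bring together type I and type II receptor kinases at the cell surface. The receptors phosphorylate Smad proteins, which enter the nucleus with the shared partner Smad4. TGF-beta and activin ligands act mainly through Smad2 and Smad3, and BMP ligands through Smad1, Smad5 and Smad9, with the Id genes among the best known BMP targets. In embryos, the family is known in this tissue for anti-Müllerian hormone, the member that makes the Müllerian duct, from which the oviduct forms, regress in males.

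In the GENCODE M21 annotation of GRCm38, Tgfb2 spans chr1:186622792-186705989 and Inhbb chr1:119415465-119422248, Bmp4 chr14:46383520-46390669, Bmp7 chr2:172868012-172940321 and Fst chr13:114452290-114458951, all on the minus strand. Bmpr1b spans chr3:141837136-142169425 and Id2 chr12:25093799-25097140 on the minus strand, and Id1 chr2:152736251-152737410 and Id3 chr4:136143497-136145755 on the plus strand. The RefSeq promoter table used (build GRCm38.p6) had windows for 6 of the 10. The windows before the gene starts of the ligands Tgfb2 and Inhbb are shown, because the results on the P4 clusters turn on Tgfb2 and those on the adult cell classes on Inhbb. They are the 250 bases before the start, 5' to 3' on the gene's strand, at chr1:186705990-186706239 for Tgfb2 and chr1:119422249-119422498 for Inhbb. Capitals mark CAGAC, a short Smad-binding motif.
Tgfb2: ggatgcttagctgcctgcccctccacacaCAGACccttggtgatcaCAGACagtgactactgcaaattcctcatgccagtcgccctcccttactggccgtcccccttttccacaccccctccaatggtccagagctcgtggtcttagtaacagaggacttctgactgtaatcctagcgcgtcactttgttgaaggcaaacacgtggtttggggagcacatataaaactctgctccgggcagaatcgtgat
Inhbb: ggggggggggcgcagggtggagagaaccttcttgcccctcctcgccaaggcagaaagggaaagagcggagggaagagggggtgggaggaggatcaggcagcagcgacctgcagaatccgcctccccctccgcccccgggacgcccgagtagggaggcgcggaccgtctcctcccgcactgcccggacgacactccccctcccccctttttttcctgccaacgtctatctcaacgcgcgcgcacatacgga
Both strands were searched for CAGAC, for the palindrome GTCTAGAC and for GGCGCC, a motif bound by BMP Smads; none of the 3 contains another. CAGAC was found 2 times before Tgfb2, 221 and 204 bases from the start, and not before Inhbb, and 42.2% of 32851 promoter windows of this length hold it. GGCGCC, held by 9.59% of windows, was found in the Id2 window only, 231 bases before the start that the table lists, which lies inside the annotated gene. GTCTAGAC, held by 0.167%, was in none of the 6 genes' windows. The GC content was 53.6% before Tgfb2 and 68.0% before Inhbb. A match is a description and not a site of binding.

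The adult library held 406 cells and 1376605 UMI (unique molecular identifiers, each standing for 1 captured RNA molecule) over the shared genes, with a median of 3177.5 per cell. The P4 library held 263 cells and 1839488 UMI, with a median of 6576 per cell. In the adult matrix, 401 barcodes appear under both of its column prefixes, and each was counted once. No barcode was shared by the adult and the P4 library. The authors' cluster numbers divide the adult cells into clusters 4, 0, 3, 1 and 5 with 31, 130, 37, 183 and 25 cells, and the P4 cells into clusters 1 and 0 with 95 and 168 cells. Adult clusters 4 and 0 are called secretory-like here and clusters 3 and 1 multiciliated-like. The summed level of 9 secretory markers was 123.2 per 10000 UMI in clusters 4 and 0, against 15.9 in clusters 3 and 1, and that of 15 multiciliated markers was 3.72 against 171.5. None of the 10 leading genes of cluster 3 was a multiciliated marker, but every one of its cells held UMI of the list, with a summed level of 131.1. The secretory level of cluster 3 was 34.5, against 12.1 in cluster 1, with the secretory marker Ovgp1 in 83.8% against 29.5% of cells. Adult cluster 5 and both P4 clusters keep their numbers. The leading genes of cluster 5 included 5 smooth muscle markers, and those of P4 cluster 0 included the cilia genes Foxj1, Dynlrb2 and Pifo. Epcam, which the sort used, had UMI in 61.6% of adult cells and in 86.3% of P4 cells, and Ptprc, which encodes CD45, had no UMI in either library.

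A level is a gene's summed UMI in a set of cells, per 10000 UMI of the set, and is given with an exact 95% Poisson interval. These intervals cover counting error only. Since there is 1 library per age and cells are not replicates, no test between the ages or clusters was made. Age, library, sort, depth, estrous stage, the mix of cell classes and the gene annotation used for counting cannot be told apart. The authors made the clusters from expression, so differences between clusters are descriptions. A fold is the ratio of levels after 0.1 per 10000 was added to both, and "higher" or "lower" by the 2-fold rule means a log2 fold of at least 1 or at most -1. A gene counts as measured where a UMI of it was found in 10% or more of the cells of one side. No cell class known to lack the 10 genes was in the matrices, so a background share from free RNA could not be measured for them. Col1a1, a collagen of fibroblasts, had UMI in 10.6% of adult cells and 73.8% of P4 cells of these epithelial sorts, at levels of 0.421 and 2.27. Shares of cells with a UMI also rise with depth, so ages are compared by level.

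Between the ages, the receptor Bmpr1b and the target Id3 were lower in adult cells, and the ligand Inhbb and the antagonist Fst were higher, while Id1 was at the same level within counting error. Of the 10 genes, 2 were at least 2-fold higher in adult cells, 2 were at least 2-fold lower and 6 lay in between. Only 7 were measured, of which 0 were higher and 2 lower, with Bmp4, Inhbb and Fst under the share of cells required. Among all 7283 measured genes, 11.5% were at least 2-fold higher in adult cells and 10.4% at least 2-fold lower. The median log2 fold of the 7 measured genes was -0.63, against -0.09 over all measured genes. Tgfb2, Bmp7, Bmpr1b and Smad7 passed the filter through the deeper P4 library alone, with 13.7%, 10.6%, 27.4% and 10.3% of its cells. Their adult shares were 1.97%, 4.68%, 5.42% and 6.16%. Since the filter also left out Inhbb and Fst, no shift of the 10 genes is read from the median. Inside the P4 library the ligand Tgfb2 stood alone, 2-fold or more lower in cluster 1 than in cluster 0, with 0 genes higher and 9 in between. There, 1.74% of the 7625 measured genes were higher in cluster 1 and 1.91% lower. Tgfb2 passed the filter through cluster 0 alone, with 20.2% of its cells against 2.11% in cluster 1.

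In the adult library, secretory-like cells held more Bmpr1b and Id1 than multiciliated-like cells, and no Inhbb. By the 2-fold rule 2 of the 10 genes were higher, 1 was lower and 7 were in between. Only Id1, Id2 and Id3 were measured, of which 1 was higher and 0 lower, and Bmpr1b and Inhbb missed the share of cells required, with 9.94% and 9.09% of cells on their higher side. Id1, the higher one, passed the filter through secretory-like cells alone, with 19.9% of cells against 7.73%. The background was 11.1% of 5077 measured genes higher in secretory-like cells and 24.5% lower. Between the secretory-like clusters, 4 of the 10 genes were measured, of which 0 were higher and 1 lower in cluster 4 than in cluster 0, with an interval that includes 1. Over all 4383 measured genes, 8.97% were higher and 20.9% lower. Of all 10 genes 3 passed the rule as lower, Bmp7, Bmpr1b and Smad7, each with 0 UMI in cluster 4. The floor of 3 counts there is 0.4998 per 10000, above their levels in cluster 0, so a difference was not detectable at this depth. Between the multiciliated-like clusters, 4 of the 10 genes were measured, of which 2, Bmp7 and Id1, were higher and 0 lower in cluster 3 than in cluster 1. Both passed the filter through cluster 3 alone, with 13.5% and 10.8% of its cells. Their shares in cluster 1 were 2.73% and 7.10%, so no shift is read from this count. Over all 5367 measured genes, 11.6% were higher and 9.15% lower. Fst, which was not measured, passed the rule as lower with 0 UMI in cluster 3. The interval of its ratio, cluster 1 to cluster 3, started at 0.914 and includes 1.

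**Figure D1:**
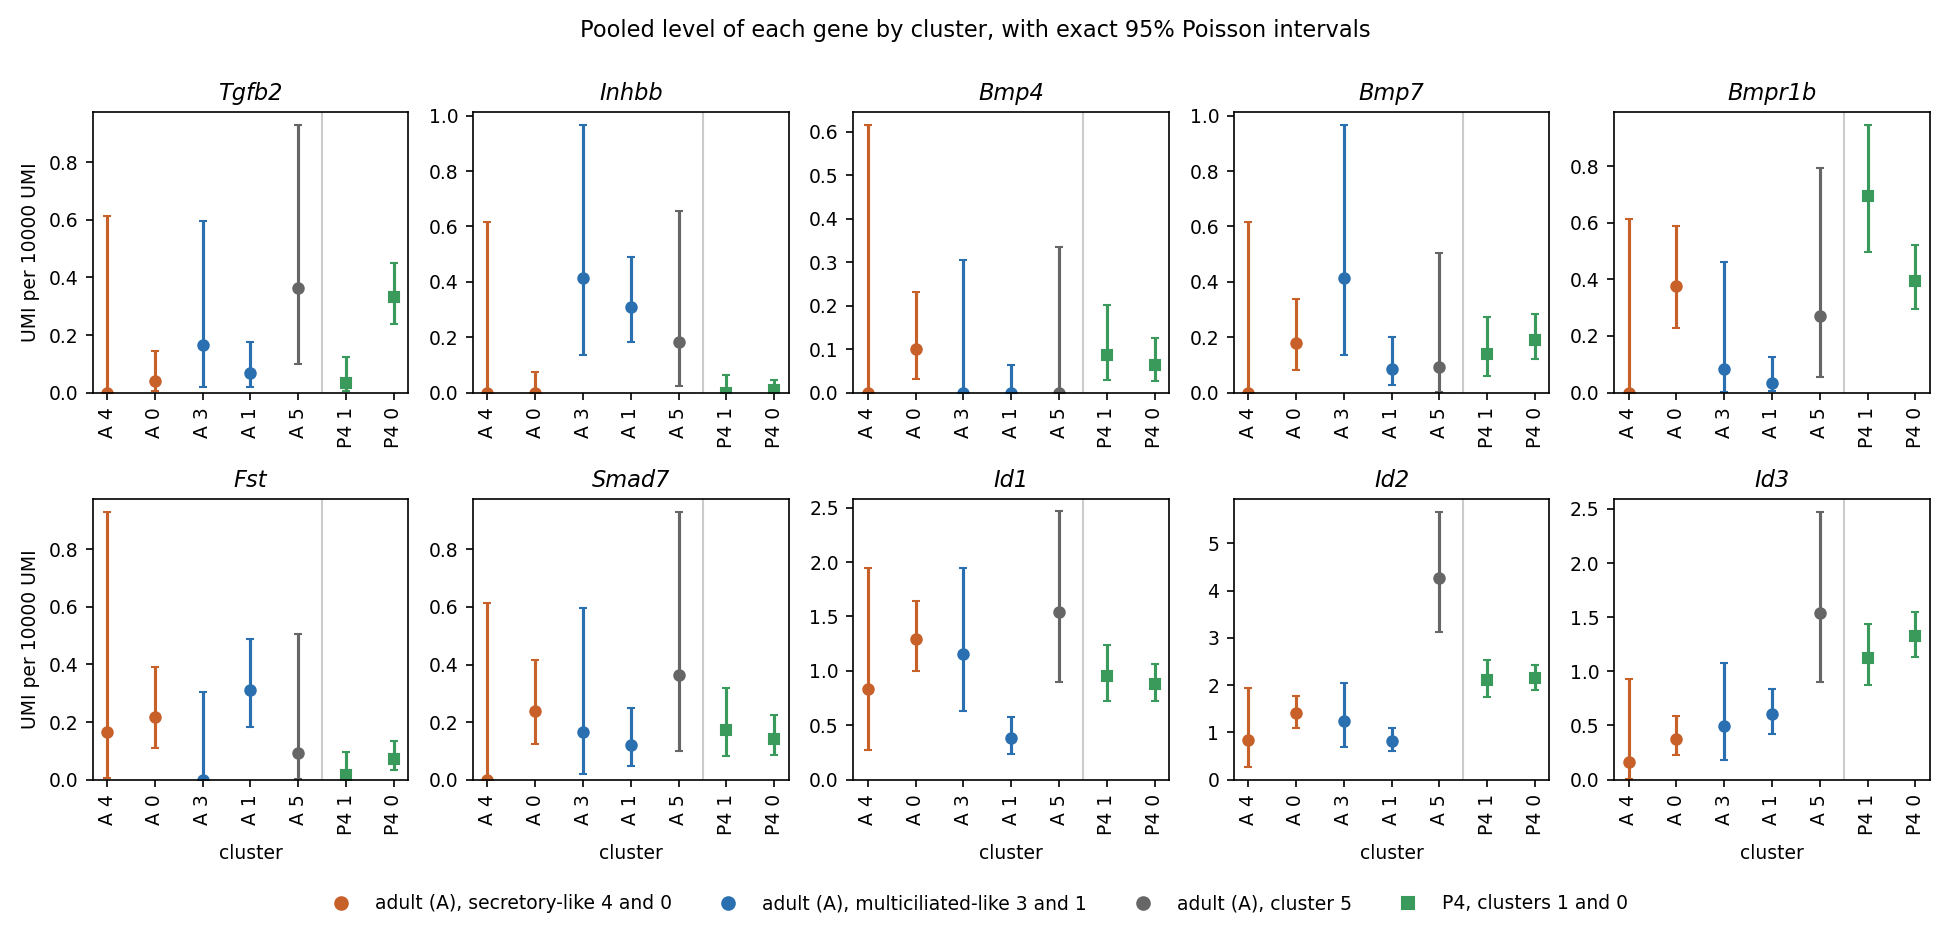
Level of each gene in UMI per 10000 UMI (y axis, from 0, scaled per gene) in the 5 adult clusters (A) and the 2 P4 clusters (x axis), with bars for exact 95% Poisson intervals. Inhbb points above 0.1 are all in adult clusters 3, 1 and 5, the Tgfb2 point of P4 cluster 0 stands at 0.333 against 0.0347 for P4 cluster 1 on its left, and the highest Id2 point is adult cluster 5 at 4.26.

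Tgfb2, which encodes a TGF-beta ligand, differed most inside the P4 library. In P4 cluster 1 it had 2 UMI, in 2 of 95 cells, a level of 0.0347, against 42 UMI, in 34 of 168 cells, a level of 0.333, in cluster 0. The ratio was 0.104 (0.0122 to 0.401) and the log2 fold -1.68, at median depths of 6074 and 6879 UMI per cell. The 2 intervals do not overlap, and no cell held more than 3 UMI. The summed multiciliated level was 4.35 in cluster 1 and 12.7 in cluster 0, and that of 14 dissociation stress genes was 103.4 in cluster 1 and 74.1 in cluster 0. Their part in the Tgfb2 difference was not tested. Between the ages Tgfb2 had 12 UMI and a level of 0.0872 in adult cells and 44 UMI and a level of 0.239 in P4 cells, a ratio of 0.364 (0.175 to 0.702) with a log2 fold of -0.86, inside the 2-fold limit. Adult clusters 4, 0, 3, 1 and 5 had 0, 2, 2, 4 and 4 UMI, and 3 of the 4 in cluster 5 came from 1 cell. Other choices moved the fold past that limit: it was -1.32 for adult secretory-like cells against all P4 cells, -1.27 with a pseudocount of 0.02, -1.14 in thinned cells and -1.08 without ribosomal protein and mitochondrial genes in the totals. Against P4 cluster 1 alone, adult secretory-like cells gave 0.01. Tgfb2 has Gm26169 and Gm29491 on its other strand, and whether the counting used strand is not stated.

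Inhbb encodes the beta B subunit shared by activin B and inhibin B. Secretory-like cells had 0 Inhbb UMI in 161 cells, which allows a share of up to 1.86% of cells with a UMI, against 23 UMI in 20 of 220 multiciliated-like cells, a level of 0.328 (0.208 to 0.491). The multiciliated-like level was 6.16 times the floor of 3 counts over the secretory-like group, with the counting error of the 23 UMI left out. Median depths were alike, at 3169 UMI in secretory-like and 3144.5 in multiciliated-like cells. Both multiciliated-like clusters held it, with 5 UMI in 3 of 37 cells of cluster 3 and 18 UMI in 17 of 183 cells of cluster 1, and 2 cells of cluster 5 held 1 UMI each. The P4 library had 1 UMI in 263 cells, in cluster 0, so adult and P4 levels were 0.182 and 0.00544, a ratio of 33.4 with an interval of 5.47 to 1372. Adult multiciliated-like cells gave a log2 fold of 2.02 against all P4 cells, a comparison in which the cell classes differ as well as the ages. For secretory-like cells against all P4 cells it was -0.076, with 0 UMI on the adult side and 1 UMI on the P4 side. P4 cells had a summed multiciliated level of 10.1, against 90.1 in adult cells, and its part in the difference between ages was not tested.

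Bmp4 and Bmp7 are ligands of BMP receptors. Bmp4 was near the limit of detection, with 5 UMI in adult cells, all in 3 of the 130 cells of cluster 0, and 13 UMI in 13 P4 cells. Its adult level of 0.0363 and P4 level of 0.0707 had a ratio interval of 0.143 to 1.54. Against 0 UMI in 220 multiciliated-like cells, which allows a share of up to 1.36%, its level in secretory-like cells was 0.0886 (0.0288 to 0.207). That is 2.07 times the floor of 3 counts over the multiciliated-like group, but the low end of the interval lies below it. The fold with the added 0.1 stayed under 2, at a log2 value of 0.92. Cluster 0 also had a summed level of 2.70 for 4 mesothelial markers, of which Msln made up 2.34 and Upk3b, Upk1b and Lrrn4 0.238, 0.0794 and 0.0397. Msln is on the secretory list too. Their part in the Bmp4 counts was not tested. Bmp4 overlaps Gm15217 and Gm15222 on the other strand.

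Bmp7 had 20 UMI in adult cells and 32 in P4 cells, with levels of 0.145 and 0.174 and a ratio of 0.835 (0.453 to 1.51). Cluster 3 stood above cluster 1, with levels of 0.414 and 0.0860, but each rests on 5 UMI in 5 cells, and the ratio of 4.81 has an interval of 1.11 to 20.9. After every cell was thinned to 1000 UMI the direction was turned round, at a log2 fold of -0.78. In P4, cluster 1 had a level of 0.139 and cluster 0 a level of 0.190, a ratio of 0.730 (0.283 to 1.68).

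Fst encodes follistatin, a secreted protein that binds activins and blocks them. It had 31 UMI in 16 of 406 adult cells, a level of 0.225, and 10 UMI in 10 of 263 P4 cells, a level of 0.0544. The ratio was 4.14 (1.98 to 9.47) and the log2 fold 1.07. Much of the adult count came from few cells. In cluster 1, 18 UMI lay in 4 of 183 cells, and 1 of these held 9. Without the cell with the most Fst UMI, the log2 fold between the ages was 0.81, inside the 2-fold limit, and with every cell weighing alike it was 0.32. In cluster 0 the gene was spread more widely, with 11 UMI in 10 of 130 cells and at most 2 in a cell. Secretory-like cells gave a log2 fold of 1.02 against all P4 cells. Cluster 3 had 0 UMI in 37 cells, and the interval of the ratio of cluster 1 to cluster 3 started at 0.914, so it includes 1. Thinned cells gave a log2 fold of 0 between these clusters, since neither side kept a count. Fst and Inhbb were not found in the same cell in either library. In adult cells 22 held Inhbb and 16 held Fst, which was in 4.17% of cells without Inhbb. These counts are too low to show whether the 2 genes keep apart. Fst overlaps Gm47040 on the other strand.

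Bmpr1b encodes a type I BMP receptor. Its highest level was in P4 cluster 1, with 40 UMI in 31 of 95 cells and a level of 0.694, followed by P4 cluster 0 with 50 UMI in 41 of 168 cells and a level of 0.396. The ratio of 1.75 (1.13 to 2.71) is beyond counting error but inside the 2-fold limit, and thinned cells gave a log2 fold of -1.39 from 2 and 12 cells with a UMI, so the direction changed with thinning. Adult cluster 0 came next at 0.377 (0.227 to 0.589), which does not differ from P4 cluster 0 beyond counting error. Clusters 4, 3, 1 and 5 had 0, 1, 2 and 3 UMI. Secretory-like cells had 19 UMI and a level of 0.337, against 3 UMI and a level of 0.0427 in multiciliated-like cells, a ratio of 7.88 with an interval of 2.32 to 41.6. All 19 UMI were from cluster 0, where 16 of 130 cells held the gene. Over the whole libraries the adult level was 0.182 and the P4 level 0.489, a ratio of 0.371 (0.228 to 0.584) and a log2 fold of -1.07. This fold differed by adult cell class: secretory-like cells gave -0.43 and multiciliated-like cells -2.05 against all P4 cells. With totals over each library's own gene list it was -0.91, inside the 2-fold limit, and in the merged matrix -0.88.

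Smad7 encodes an inhibitory Smad that blocks signalling from the receptors and is itself a target of the pathway. It had 25 UMI in 25 adult cells and 28 UMI in 27 P4 cells, with levels of 0.182 and 0.152 and a ratio of 1.19 (0.667 to 2.12). The direction between the ages changed with the handling of depth. The log2 fold was 0.16 for pooled levels, -0.91 in thinned cells and -0.30 with every cell weighing alike. Levels in adult clusters 4, 0, 3, 1 and 5 were 0, 0.238, 0.165, 0.120 and 0.363, and those in P4 clusters 1 and 0 were 0.173 and 0.143. No neighbouring pair in the order of these 7 levels differed beyond counting error. Cluster 5, at the top, rests on 4 UMI in 4 of 25 cells.

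**Figure D2:**
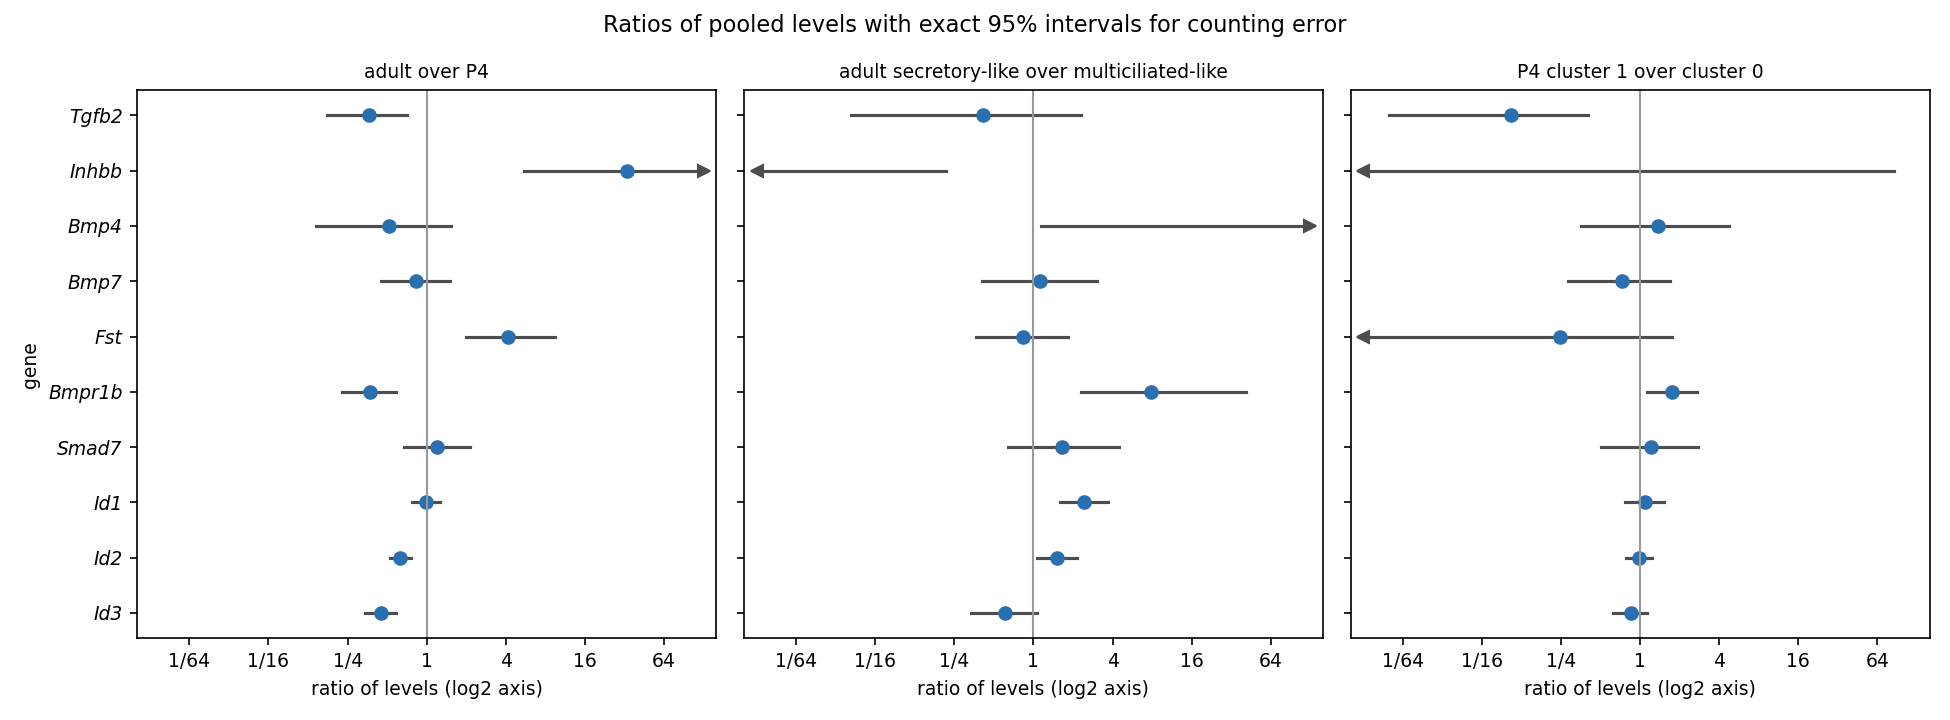
Ratio of the level in the first-named cells to that in the second-named cells (x axis, log2 scale) for each gene (y axis), with exact 95% intervals for counting error. Arrowheads mark intervals that run past the axis, and a gene with 0 UMI on a side has no point. Adult over P4, Bmpr1b, Id2, Id3 and Tgfb2 lie wholly left of 1 and Inhbb and Fst wholly right of it. In the P4 library only the Tgfb2 and Bmpr1b intervals leave out 1.

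The Id genes encode helix-loop-helix proteins without a DNA-binding region, which bind and hold back transcription factors that drive differentiation. Id1 was at the same pooled level in both libraries, 0.894 (0.743 to 1.07) in adult cells and 0.902 (0.770 to 1.05) in P4 cells, a ratio of 0.990 (0.778 to 1.26). The log2 fold between the ages was 0.51 in thinned cells and -0.33 with every cell weighing alike. The adult value joined unlike cell classes. Secretory-like cells had 70 UMI in 32 of 161 cells, a level of 1.24, against 36 UMI in 17 of 220 cells, a level of 0.513, in multiciliated-like cells, a ratio of 2.42 (1.60 to 3.73). The thinned log2 fold was 1.75 in the same direction. Within the multiciliated-like cells the level was 1.16 in cluster 3 and 0.378 in cluster 1, a ratio of 3.06 (1.45 to 6.25), with the 14 UMI of cluster 3 in 4 of its 37 cells. Summed dissociation stress levels moved alike. They were 121.3 in secretory-like and 77.4 in multiciliated-like cells, and 174.8 in cluster 3 and 57.1 in cluster 1. Summed secretory levels were 34.5 in cluster 3 and 12.1 in cluster 1. The part of the stress and secretory levels in those of Id1 was not tested. In P4 the stress level was 103.4 in cluster 1 and 74.1 in cluster 0, while Id1 was 0.954 and 0.879 there, a ratio of 1.09 (0.771 to 1.51).

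Id2 was lower in adult cells, with 186 UMI and a level of 1.35 (1.16 to 1.56), than in P4 cells, with 394 UMI and a level of 2.14 (1.94 to 2.36). The ratio of 0.631 (0.527 to 0.753) is beyond counting error and the log2 fold of -0.63 is inside the 2-fold limit. The P4 clusters were alike, at 2.12 in cluster 1 and 2.15 in cluster 0, with a ratio of 0.982 (0.787 to 1.22). Most adult clusters lay below both, at 0.833, 1.41, 1.24 and 0.826 in clusters 4, 0, 3 and 1, and cluster 5 lay above both at 4.26 (3.13 to 5.67). In the order of the 7 levels, cluster 5 differed from P4 cluster 0 beyond counting error, by a ratio of 1.98 (1.42 to 2.70), and P4 cluster 1 from adult cluster 0 by 1.502 (1.11 to 2.04). Secretory-like cells had 1.35 against 0.897 in multiciliated-like cells, a ratio of 1.502 (1.06 to 2.13). Against all P4 cells the multiciliated-like cells alone passed the 2-fold limit, at a log2 fold of -1.17.

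Id3 had 78 UMI and a level of 0.567 (0.448 to 0.707) in adult cells, against 233 UMI and a level of 1.27 (1.11 to 1.44) in P4 cells, a ratio of 0.447 (0.342 to 0.580) and a log2 fold of -1.04. The fold was -1.59 for secretory-like cells and -0.999 for multiciliated-like cells against all P4 cells. It stood close to the 2-fold limit, and was -0.87 with totals over each library's own gene list and -0.94 in the merged matrix or with the other adult prefix. P4 cluster 1 had 1.13 and cluster 0 had 1.33, a ratio of 0.847 (0.626 to 1.13). Adult clusters 4, 0, 3 and 1 had 0.167, 0.377, 0.496 and 0.602, with 10 of the 35 UMI of cluster 1 in 1 cell. Secretory-like and multiciliated-like cells had levels of 0.355 and 0.584, a ratio of 0.607 (0.337 to 1.06) that includes 1. Markers of other cell types differed between the libraries as well. The summed level of 7 fibroblast markers was 2.27 in adult and 7.04 in P4 cells, and that of 6 proliferation markers 0.153 and 4.03, with none of either list at 0. For 6 smooth muscle markers it was 7.96 and 4.47, and for 6 endothelial markers 0.320 and 0.555. The part of these in the age differences was not tested. With all cells, 4 of the 10 genes were past 2-fold between the ages, beside 21.8% of all measured genes. The number was also 4 without the 3 adult and 105 P4 cells that held 2 or more proliferation markers. Bmpr1b, Id3 and Fst lay close to the limit with all cells, at log2 folds of -1.07, -1.04 and 1.07. An equal number therefore does not show what part proliferation had.

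Adult cluster 5 had the highest level of all 3 Id genes, 1.54 for Id1, 4.26 for Id2 and 1.54 for Id3. By UMI of the 6 smooth muscle markers its cells fell apart, into 7 cells with 42 to 156 and 18 cells with at most 4. The 7 cells held 56968 UMI in all and the 18 cells 53328, so the cells with smooth muscle UMI were deeper, and whether any were joined cells was not tested. Id2 had a level of 2.28 (1.22 to 3.90) in the 7 cells with smooth muscle UMI, against 6.38 (4.42 to 8.91) in the other 18, a ratio of 0.358 (0.173 to 0.696). The level in the 7 cells overlaps those of both P4 clusters within counting error. Id1 had 0.351 against 2.81, a ratio of 0.125 (0.0138 to 0.537), with 2 UMI in the 7 cells and 15 UMI in the other 18. For Id3 the levels were 1.23 and 1.88, a ratio of 0.655 (0.212 to 1.91) that includes 1. Id1 and Id2 were thus higher in the cells with few or no smooth muscle UMI. Among those 18 cells, 12 held Id2, 9 held Id1 and 8 held Id3. The summed multiciliated level of the whole cluster was 13.96, its secretory level 70.8 and its stress level 94.0.

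**Figure D3:**
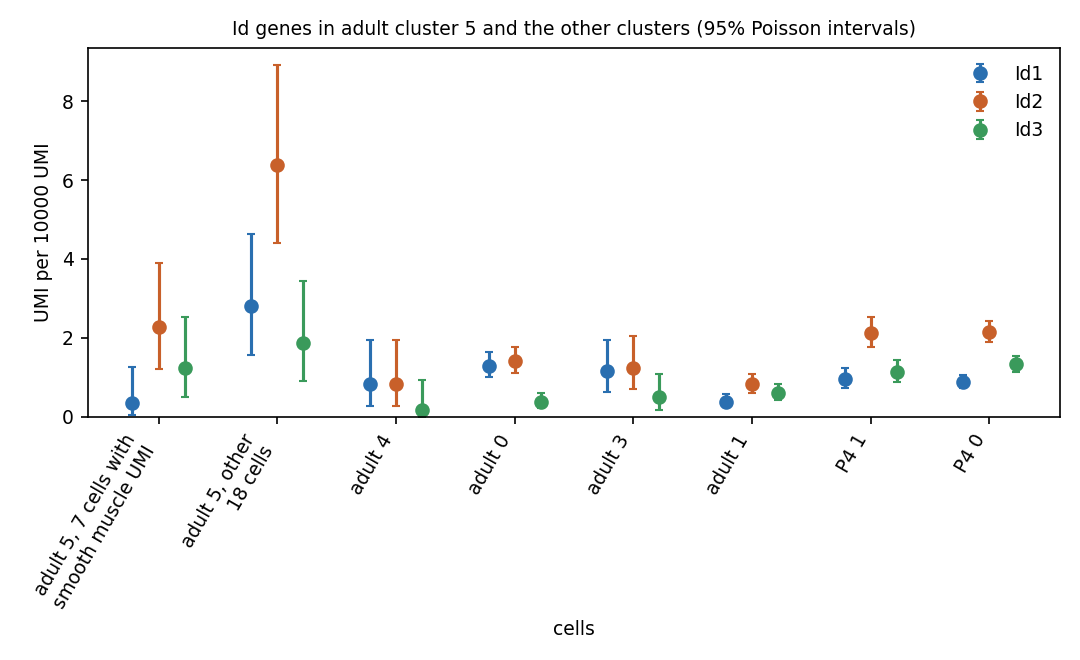
Levels of Id1, Id2 and Id3 in UMI per 10000 UMI (y axis, from 0) with exact 95% Poisson intervals, in the 7 and the 18 cells of adult cluster 5 and in the other clusters (x axis). The 18 cells of cluster 5 with at most 4 smooth muscle UMI reach 6.38 for Id2 and 2.81 for Id1, above the points of every other cluster shown.

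Few neighbours in the order of levels could be told apart. Over the 10 genes and 7 clusters there were 60 neighbouring pairs, of which 5 differed beyond counting error, 2 for Id2 and 1 each for Bmpr1b, Id3 and Inhbb. For Tgfb2, Bmp4, Bmp7, Id1, Fst and Smad7 none did. From the highest to the lowest cluster, the intervals of the ratio left out 1 for Bmpr1b, Id1, Id2 and Id3. The pair found for Id3 was P4 cluster 1 above adult cluster 1, a ratio of 1.87 (1.22 to 2.91), and that for Inhbb was adult cluster 5 above P4 cluster 0, with 2 UMI and 1 UMI.

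A list of 74 other genes of the pathway was read the same way. Between the ages 32 of them were measured, of which 3 were at least 2-fold higher in adult cells and 4 lower. These shares are near the 11.5% higher and 10.4% lower among all measured genes. The median log2 fold of the 32 was -0.25, against -0.09 over all measured genes. Many passed the filter through the deeper P4 library alone, such as Bmp1, Fstl1 and Tgfbi with 18.6%, 47.1% and 66.5% of its cells. Their adult shares were 2.46%, 4.68% and 5.67%. Hey1 and Pmepa1 passed through the adult library alone, with 10.1% and 20.9% of cells against 3.42% and 4.18%. No shift of the list is read from the median. Pmepa1, a TGF-beta target that dampens Smad signalling, had levels of 0.894 in adult and 0.0652 in P4 cells, a ratio of 13.7 (7.56 to 27.2). Bambi, a decoy receptor without a kinase, had 1.02 in adult and 0.359 in P4 cells, and Hey1, a transcriptional repressor, had 0.305 and 0.0652. Tgfbi, a matrix protein named for its response to TGF-beta, had 0.276 in adult and 2.29 in P4 cells, a ratio of 0.121 (0.0842 to 0.168). The secreted proteins Cyr61 and Fstl1 and the metalloprotease Bmp1 were lower as well, with adult levels of 3.09, 0.196 and 0.0799 against P4 levels of 9.98, 1.08 and 0.321. Ctgf, with 25 adult and 6 P4 UMI, was 2-fold higher but not measured by the share of cells. All 6 measured receptors and all 8 measured Smad genes and regulators lay inside the 2-fold limit. Tgfbi, Fstl1 and Cyr61 are also genes of fibroblasts, whose markers were higher in the P4 library as given above, and the part of such RNA was not tested.

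**Figure D4:**
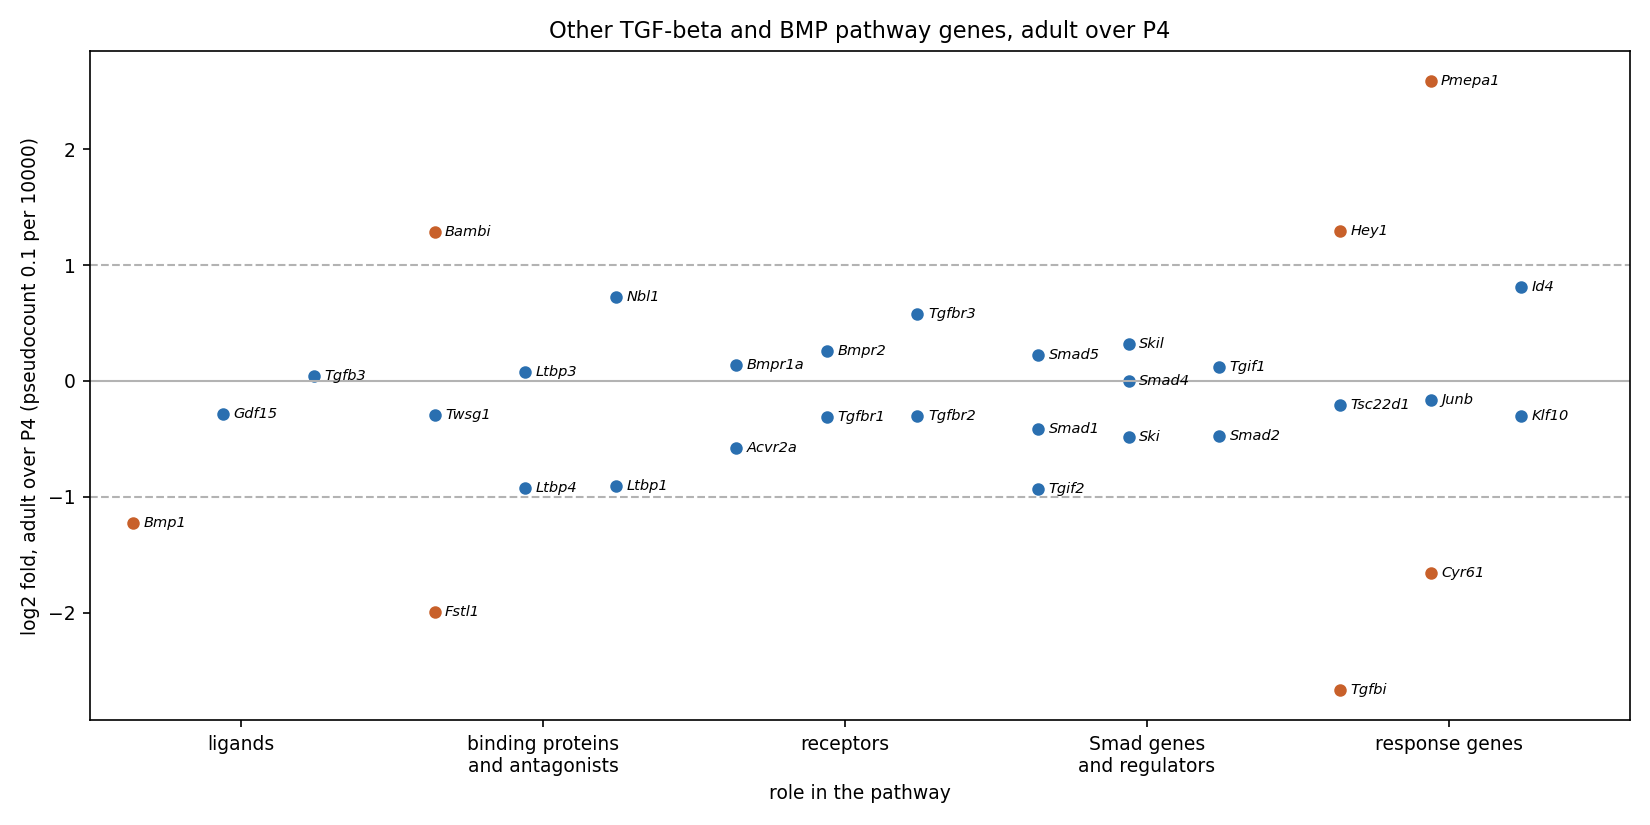
Log2 fold, adult over P4 (y axis), of the 32 measured genes among 74 other pathway genes, by role (x axis; the position within a role has no meaning). Dashed lines mark 2-fold, and genes past them are in orange. Pmepa1, Hey1 and Bambi lie above the upper line and Tgfbi, Fstl1, Cyr61 and Bmp1 below the lower line.

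Within the adult library, 24 of the 74 were measured between secretory-like and multiciliated-like cells, 4 of them higher and 2 lower in secretory-like cells, beside 11.1% higher and 24.5% lower among all measured genes. Tgfb3, a TGF-beta ligand, had 28 UMI and a level of 0.496 in secretory-like cells against 2 UMI and 0.0285 in multiciliated-like cells, a ratio of 17.4 (4.395 to 151). Nbl1, a secreted BMP antagonist, had levels of 2.003 and 0.726 in these groups. Ltbp3 and Ltbp4, which bind latent TGF-beta in the matrix, had 0.603 and 0.496 in secretory-like cells against 0.242 and 0.114 in multiciliated-like cells. Bambi and Pmepa1, by contrast, had 0.532 and 0.355 in secretory-like cells against 1.45 and 1.34 in multiciliated-like cells. Among genes that were not measured, Inha, which encodes the inhibin alpha subunit, had 0 UMI in secretory-like and 10 UMI in multiciliated-like cells. The multiciliated-like level was 2.68 times the floor of 3 counts over the secretory-like group, the same direction as Inhbb. Gdf15, a stress-linked ligand of the family, had 4 UMI in secretory-like and 21 UMI in multiciliated-like cells.

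Of 33 measured pathway genes in the P4 library, Gdf15 alone was past 2-fold. It had 37 UMI and a level of 0.642 in cluster 1, against 24 UMI and 0.190 in cluster 0, a ratio of 3.38 (1.97 to 5.90). Between adult clusters 4 and 0, 23 were measured, 0 higher and 12 lower in cluster 4, beside 8.97% and 20.9% among all measured genes. Of the 12, the interval left out 1 for Nbl1, Cyr61 and Junb. Median depths were 1164 UMI per cell in the 31 cells of cluster 4 and 4040 in cluster 0. The floor of 3 counts in cluster 4 was 0.4998 per 10000. Genes of low level could thus pass the filter through cluster 0 alone, and the 12 are not read as a shift of the pathway. The summed stress level was 39.8 in cluster 4 and 131.0 in cluster 0. The parts of depth and stress were not tested. Between adult clusters 3 and 1, 21 were measured, 6 higher and 5 lower in cluster 3, beside 11.6% and 9.15% among all measured genes. The interval left out 1 for 5 of the higher and 1 of the lower genes. Junb, an immediate early gene, had levels of 23.0 in cluster 3 and 6.23 in cluster 1, Cyr61 10.6 and 2.68, and Klf10 1.16 and 0.344. Gdf15 had 19 UMI in cluster 3 and 2 in cluster 1. The stress and secretory levels given above were higher in cluster 3 as well, and their part was not tested. Smad4 had 0 UMI in 37 cells of cluster 3, against 37 UMI in cluster 1, a level 2.57 times the floor of 3 counts in cluster 3.

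The genes whose log2 levels over the 7 clusters were most like those of a member were found by Pearson's r among 1630 genes with at least 100 UMI in each library. This describes 7 points that share libraries and depth, 5 from the adult and 2 from the P4 library. For Id1 the nearest were Fam3c (0.93), Egr1 (0.87) and Nbl1 (0.86), and for Id2 Psme2 (0.97), Ilk (0.95) and Frg1 (0.95). Egr1 is an immediate early gene. Genes most like Id3 included Matr3 (0.97) and Mrpl12 (0.96), and Mrpl12 was among the nearest for Tgfb2 too (0.80), after Sept2 (0.82) and before Tomm20 (0.79). Bmpr1b was most like Ppp1r14b (0.95), Nfib (0.94) and Timp2 (0.94), and Bmp7 like Btg1, Ptp4a1 and Cyb5b (0.95, 0.95 and 0.94). Smad7 was most like Zfp36l1 (0.96), Ntan1 (0.94) and Myl9 (0.94), a smooth muscle light chain gene. Between Id2 and Id3, r was 0.83.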

How the data were processed

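Single-cell RNA was counted in 1 adult and 1 P4 oviduct library. The authors deposited raw counts (UMI per gene and cell) with no normalization, and a cluster number per cell. Of tools, the submitters' processing notes list Seurat 2.3.4 and Cell Ranger, whose version is not given in the sources used here, and of genome builds mm10, with no word on the step that used them. Positions come from GENCODE M21 on GRCm38, and promoter sequences from RefSeq (GRCm38.p6).

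The adult matrix lists 27998 genes and the P4 matrix 53573. Totals were taken over the 26897 shared genes, which left out 1.79% of adult and 13.4% of P4 UMI. The adult matrix has 807 columns for 406 barcodes. For the 401 barcodes under both prefixes the first prefix was taken, and 2 of them have another cluster under the second. The merged matrix served only as an alternative, and its clusters were not used. No doublet caller was run.

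Levels have exact 95% Poisson intervals, ratios an exact conditional interval, and a share of 0 is limited by 3 cells over the number of cells. Folds used a pseudocount of 0.1 per 10000. Against 0 counts a fold is a bound at a floor of 3 counts over the group. No p-value was computed. Thinning drew 1000 UMI per cell and left out shallower cells: 318 of 406 adult and all 263 P4 cells remained. All 10 members are named. The other pathway genes are named where at least 2-fold apart with at least 20 UMI on the higher side, with Ctgf, Inha, Smad4, Gdf15 and the nearest genes added by count or by r. One of the genes nearest to a member is not reported here. The alternatives changed the pseudocount, filter, weights, totals, depth, prefix, matrix and the cells used. The members and lists were chosen with earlier results of these data known. The counting code was tested on simulated data. Python 3.11.15 was used with numpy 2.4.6, pandas 2.3.3, scipy 1.17.1 and matplotlib 3.10.9.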

Additional observations from a re-analysis of the deposited data

How the results depend on the processing

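Over 5 comparisons, 17 alternatives gave 600 values for single members. Of 173 values for the 14 folds past 2-fold, 141 kept that size and 169 kept their direction. Those reversed were Bmp7 in adult cluster 3 over 1, -0.78 in thinned cells, and Inhbb for adult secretory-like over P4 cells, -0.076. At 0 were Fst in thinned cluster 3 over 1 and Inhbb for secretory-like cells over P4 cluster 1. The order of comparisons below is adult over P4, P4 cluster 1 over 0, secretory-like over multiciliated-like, adult cluster 4 over 0 and 3 over 1. Members past 2-fold numbered 4, 1, 3, 3 and 3, and 21.8%, 3.66%, 35.6%, 29.9% and 20.8% of measured genes were past it. Member numbers in this section are out of all 10, measured or not, so they are not counted on the set of genes behind the shares. Among measured members alone, 2 of 7, 1 of 7, 1 of 3, 1 of 4 and 2 of 4 were past 2-fold. With a pseudocount of 0.5, members numbered 0 in all 5 and the shares were 8.14%, 0.511%, 18.1%, 8.40% and 6.04%. With 0.02, the members numbered 2 in P4 and 6 in cluster 4 over 0, and the shares there were 8.47% and 35.9%. Between the ages, 2 members passed with adult secretory-like cells against P4 cluster 1, with the merged matrix and with each library's own totals. In cluster 4 over 0, 6 passed with every cell weighing alike, beside a share of 40.9%, and 5 without ribosomal and mitochondrial genes, beside 32.8%. Without the cell richest in the gene 7 passed, and no share was computed for that setting. Thinned cells gave 2 members in P4 and 5 in secretory-like over multiciliated-like. The thinned shares were 39.1% between the ages, 10.9% in P4, 47.1% in secretory-like over multiciliated-like and 37.5% in cluster 3 over 1. Without proliferating cells the P4 share was 7.19%, and for multiciliated-like over P4 cells the share was 33.1%. Without the filter on cells, shares were 12.3% between the ages, 2.34% in P4 and 18.3% in secretory-like over multiciliated-like. A larger pseudocount shrinks all folds, and fewer UMI per cell widen the scatter, by construction; the cause of the other changes was not tested. Own totals and leaving out the richest cell were chosen after seeing the data. Low counts limit Bmp4, Inhbb, Fst and all of cluster 4. No paired analysis was possible because each age has 1 library.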

Other observations

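Detection of members in the same cells was counted after thinning each cell to 1000 UMI. In adult cells, 6 of the 25 cells with Id1 also held Id2 (24.0%, exact Clopper-Pearson interval 9.36 to 45.1), against 36 of 293 cells without Id1 (12.3%, 8.76 to 16.6). The unthinned shares were 45.0% and 19.7%. In P4 cells 3 of 15 cells with Id1 held Id2 (20%), against 47 of 248 without it (19.0%), and the unthinned shares were 75.2% and 69.0%. For Id1 with Id3 the thinned adult counts were 3 of 25 and 10 of 293 cells. These intervals overlap, and over the 10 pairs of members in each library the thinned counts were too low to show a difference.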
